A study of Homo sapiens with 12 samples.

Results

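TGM2 encodes tissue transglutaminase and was chosen by its counts in HL-60 cells with and without all-trans retinoic acid (ATRA). In ATRA against untreated cells it had the largest fitted fold change of the 13318 genes tested. It is 1 of the 59251 genes listed in the count table. HL-60 is a human myeloid leukemia cell line that grows in suspension and matures along the granulocytic path when given a retinoid. RNA-Seq covered 3 untreated libraries, 3 treated with 1 µM ATRA, 3 treated with 1 µM of the CDK4/6 inhibitor palbociclib and 3 treated with both drugs (combination), each drug for 48 h. All 12 libraries came from this 1 line, and the labels name the libraries of each group as separate biological replicates.

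Tissue transglutaminase is a calcium-dependent enzyme that joins glutamine residues of one protein to lysine residues of another or to small amines. It also binds GTP, which holds it in a closed form without crosslinking activity, and at the cell surface it acts with integrins and fibronectin in adhesion. In myeloid cells it is known as a product of retinoid-driven maturation and as a helper in the uptake of apoptotic cells. ATRA acts through retinoic acid receptors, which pair with retinoid X receptors on DNA and switch on such genes.

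In the table, TGM2 lies on the minus strand of chromosome 20 (hg38, chr20:38127385-38168475). Its 15 merged exons add up to 5349 bases, of which 2064 are coding in GENCODE v44 and 2834 lie 3′ of the coding sequence, most of them in a last exon of 2985 bases. None of the 15 genes listed within 250 kb overlapped it, and TGM2 was listed on no alternate contig.

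Total counts ranged from 12230923 to 18679544 per library, and the combination libraries were the smallest. Values are given as CPM, the counts scaled to a common library total, after TMM normalization, which corrects those totals for differences in composition. A gene counts as called where edgeR's quasi-likelihood test gave an adjusted p under 0.05. Scaling to library size alone moved the median log2 change over all genes from 0.00143 to -0.28 for combination against palbociclib and from 0.044 to -0.26 for combination against ATRA. With it, the share of calls that were rises went from 49.8% to 36.7% and from 53.0% to 31.6%. Of 11 myeloid markers, 8 had more than 3 counts in some library of each group, whereas ELANE, AZU1 and PRTN3, which are also listed on an alternate contig, were listed at 0 throughout. Their summed level was 7180 to 7527 CPM in untreated, 4261 to 4394 in palbociclib, 1334 to 1384 in ATRA and 1783 to 1836 in combination libraries. MPO, a granule enzyme of immature myeloid cells, made up most of this sum without ATRA, at 6329 to 6658 CPM in untreated and 3409.9 to 3539 in palbociclib libraries, against 268 to 322 in ATRA and 24.5 to 33.8 in combination libraries. Without MPO the other 10 markers summed to 852 to 869 CPM in untreated, 851 to 855 in palbociclib, 1046 to 1086 in ATRA and 1757 to 1802 in combination libraries. Of the 8 markers with counts, MPO, CTSG, CEBPA, LYZ and CD33 were called lower in ATRA against untreated cells. ITGAM, SPI1 and CSF3R were called higher, and the calls were the same in combination against palbociclib. Of all tested genes, 32.1% were called higher and 35.5% lower in the first contrast, and 39.1% and 39.5% in the second. With palbociclib against untreated cells, MPO, CTSG and CEBPA were called lower and LYZ, CD33, ITGAM, SPI1 and CSF3R higher. Of all tested genes, 28.3% were called higher and 27.9% lower there. The marker levels thus moved with ATRA and with palbociclib, and their part in the values below was not tested. The 6 endothelial markers, from a cell type known for high TGM2, summed to at most 0.313 CPM in any library. Fibroblast, epithelial and erythroid markers summed to at most 1.32 CPM, and the 6 lymphoid markers summed to 13.1 to 27.0 CPM.

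TGM2 was nearly silent in every library without ATRA and among the most abundant transcripts in every library with it. The untreated libraries held 1, 0 and 0 TGM2 counts, and the palbociclib libraries held 0, 1 and 0. The ATRA libraries held 35348, 33339 and 35269 counts, and the combination libraries held 20143, 21129 and 23257. The libraries with and without ATRA did not overlap, and both groups without ATRA were under 3 counts over the group. In such bulk samples, more cells with TGM2 RNA and more TGM2 RNA per cell cannot be told apart.

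**Figure D1:**
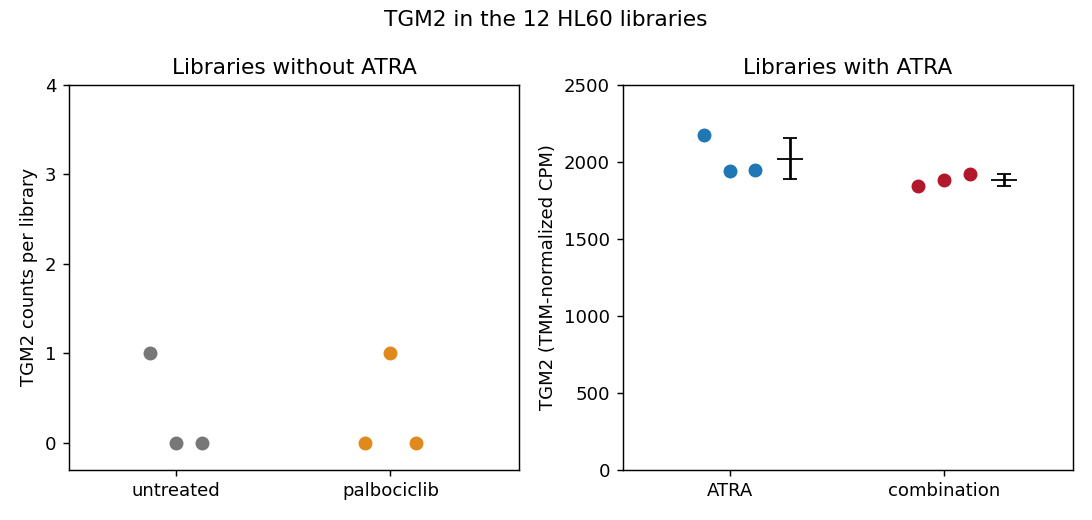
TGM2 in the 12 libraries, as raw counts in the untreated and palbociclib libraries (left) and as TMM-normalized CPM in the ATRA and combination libraries (right), with each point a library and bars showing mean ± SD (n = 3). The 6 libraries without ATRA hold 0 or 1 count, and the 6 with ATRA lie between 1844 and 2176 CPM.

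As a level, TGM2 was at 2176, 1942 and 1946 CPM with ATRA (mean 2021 ± 134, SD, n = 3). It was at 1844, 1881 and 1920 CPM with the combination (mean 1882 ± 37.7, SD, n = 3). TGM2 took 0.216% ± 0.0141 (SD, n = 3) of all counts with ATRA and 0.162% ± 0.00196 (SD, n = 3) with the combination. The coefficient of variation among libraries was 6.63% with ATRA and 2.01% with the combination, where counting error alone would give 0.537% and 0.682%.

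TGM2 was chosen with its counts in all 4 groups in view, so each of its contrasts is given as a description, with no test. With palbociclib present in both groups, the combination libraries had 64529 TGM2 counts in all, against 1 in the palbociclib libraries. The ratio of the summed, normalized counts was 99418, with an exact 95% counting interval of 17843 to 3926859. Without the palbociclib library that held the 1 count, the group was at 0 and the combination was at least 22856-fold higher, against a floor of 3 counts over the group. TGM2 was higher in 3 of 3 combination libraries than in any palbociclib library.

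ATRA against untreated cells gave a ratio of summed, normalized counts of 101662 (exact 95% counting interval 18246 to 4015473). The combination against untreated cells gave 94906 (17033 to 3748662). Without the untreated library that held the 1 count, these became bounds of at least 22687-fold and 21179-fold. No fold is given for palbociclib against untreated cells, where both groups were under 3 counts, nor for a departure from additivity on the log2 scale, which would rest on that fold.

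With palbociclib added to ATRA, TGM2 was slightly lower. The fitted log2 difference of combination against ATRA was -0.10 (SE 0.043), a fold of 0.931, and the highest combination library (1920 CPM) lay just under the lowest ATRA library (1942 CPM). By library size alone the log2 difference was -0.41. Against the median of all genes it was -0.15 under both scalings.

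TGM2 ranked 31st of all genes by mean CPM with ATRA and 75th with the combination. Single libraries placed it 27th, 35th and 35th with ATRA and 69th, 75th and 81st with the combination. In untreated cells 20375 genes lay above it and 799 were tied with it, and with palbociclib 19978 lay above and 818 were tied, so that no gene stood directly next to it. Of the 30 genes above TGM2 with ATRA, 28 were also above it with the combination, and 46 others joined them. The genes above TGM2 held 12.1% of the normalized counts with ATRA and 28.4% with the combination.

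**Figure D2:**
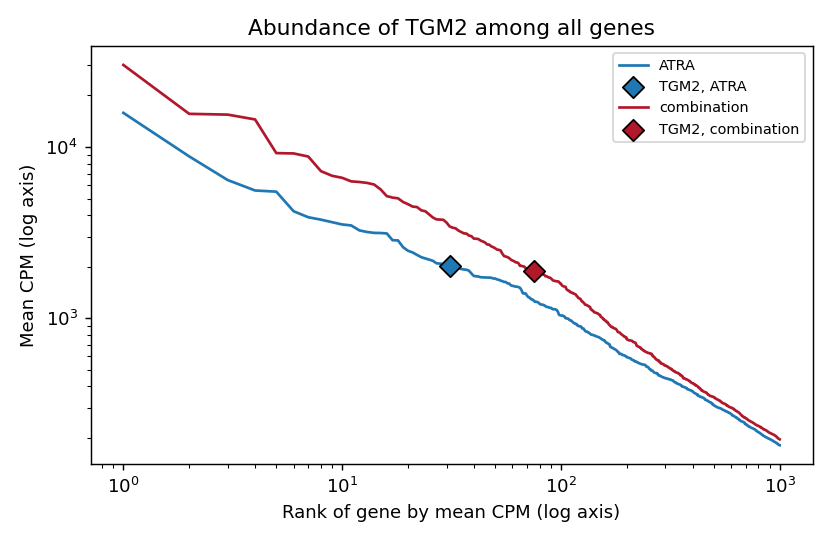
Mean CPM of genes against their rank by mean CPM, both on log axes, for the ATRA and combination groups (n = 3 libraries each), with TGM2 as diamonds. TGM2 sits at rank 31 with 2021 CPM in the ATRA curve and at rank 75 with 1882 CPM in the combination curve, which lies higher.

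By CPM, the genes directly above TGM2 with ATRA were YBX1 (an RNA-binding protein), CYBB (the catalytic subunit of the phagocyte NADPH oxidase) and TMSB4X (an actin-binding peptide). Directly below it were RPLP1, a ribosomal protein, MSN, which links actin to the membrane, and HNRNPA1, a splicing factor. With the combination its neighbours were PABPC1, RPL23 and RPL27A above and ENO1, RPL12 and MCL1 below, genes of translation, glycolysis and survival. Long genes collect more counts, so levels were also compared per kb of the length in the table. Per kb, TGM2 had 377.9 ± 25.1 CPM with ATRA and 351.8 ± 7.06 with the combination (SD, n = 3), and ranked 146th and 186th. Its neighbours per kb were COX8A, SNRPB and TRNP above and COX6B1, APLP2 and GSTP1 below with ATRA. With the combination they were FERMT3, ICAM1 and TMA7 above and TAGLN2, RPL28 and EIF3L below.

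By fitted fold change TGM2 ranked 1st in ATRA against untreated cells, a rank that follows from its choice as the strongest ATRA-induced gene, and 1st in combination against untreated cells, which shares the untreated libraries. In combination against palbociclib it ranked 2nd, after PTGES. PTGES had 0 palbociclib counts and TGM2 had 1, so their order rests on that count and on the prior count. With the combination TGM2 had the higher level, at 1882 CPM against 1760 for PTGES. By the gain in CPM rather than by fold it was 5th for ATRA minus untreated cells (2021 CPM), after RNR2, CTSD, ACTB and COX1, and 24th for combination minus palbociclib. Those 4 genes were already expressed in untreated cells and were between 1.33-fold and 8.30-fold higher with ATRA.

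The 5 genes directly below TGM2 in the ATRA fold ranking were PTGES, EPAS1, DHRS3, PTPRN2-AS1 and CD38. The places of EPAS1 and PTPRN2-AS1, which had no untreated count, depend on the prior count, so the order among these 5 is not firm. PTGES, the terminal synthase in making the prostaglandin PGE2, had 1 count over the untreated libraries, 0 with palbociclib, 25932 with ATRA and 60392 with the combination. Its ratio for ATRA against untreated cells was 25360, with an exact 95% counting interval of 4551 to 1001695 that overlapped that of TGM2, since each rested on 1 untreated count. Per kb, PTGES had 288.0 ± 19.1 CPM with ATRA, below TGM2, and 1005 ± 49.3 with the combination, above it (SD, n = 3). DHRS3, a reductase of retinaldehyde, had a ratio of 3164 (875 to 26129). EPAS1, a hypoxia-inducible factor subunit, and PTPRN2-AS1, an antisense RNA, had no untreated count and were at least 538-fold and 333-fold higher with ATRA. The paper names a directional library kit, but the strand setting of the counting is not given in the sources used here. PTPRN2-AS1 therefore cannot be told apart from reads of its sense partner. CD38, a NAD-consuming surface enzyme, rose from 0.179 ± 0.263 to 399 ± 8.07 CPM (SD, n = 3).

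**Figure D3:**
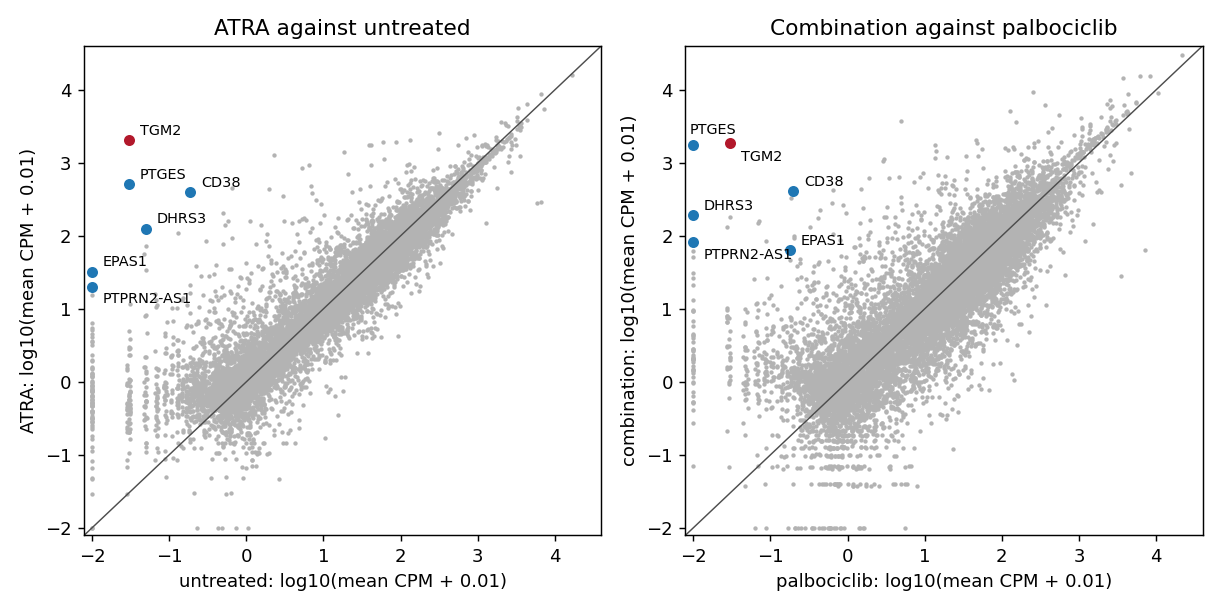
Mean CPM of the 13318 tested genes, as log10(mean CPM + 0.01), in untreated against ATRA cells (left) and in palbociclib against combination cells (right), with TGM2 in red, the 5 genes below it in the ATRA fold ranking in blue and the diagonal marking equal levels (n = 3 libraries per group). TGM2 lies far above the diagonal in both panels, at 2021 and 1882 CPM.

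For comparison with other genes that were silent without ATRA, genes were taken that had 3 counts or fewer in each of the 6 libraries without ATRA, a rule set after the values were seen. Of 42259 such genes, 200 had more than 3 counts in each ATRA library and 129 of these also in each combination library. The 200 genes had a median of 10 counts per ATRA library. Only 13 of them reached a mean of 100 counts and 3 a mean of 1000, namely TGM2 (34652), PTGES (8644) and DHRS3 (2157).

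The genes whose profile was most like that of TGM2 were found by Pearson's r of log2(CPM + 1) over the 12 libraries, among 9899 genes with a mean of at least 5 CPM in some group. The libraries fall into those with and without ATRA, so r mainly measures a step of equal shape and is given as a description. The highest were CD38, CEACAM1, APBB1IP, AGO1, TSPAN14, CYP4F3, GNG2, DHRS3, HIC1 and IRF1, with r between 0.997 and 0.999. In all, 58 genes had r of at least 0.99 and 425 of at least 0.95. CD38 was near equal in both groups with ATRA, at 399 ± 8.07 CPM with ATRA alone and 405 ± 8.80 with the combination (SD, n = 3). AGO1, which loads small RNAs, had the same shape at a much smaller step, with 71.2, 182, 69.5 and 184 CPM in untreated, ATRA, palbociclib and combination cells. GNG2, a G protein subunit, went from 1.95 to 432 CPM with ATRA and from 1.91 to 619 CPM with the combination. The most opposite were MAP4, a microtubule-binding protein (151, 57.7, 144 and 57.5 CPM in the same order), the peptidase NLN and SBF1.

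**Figure D4:**
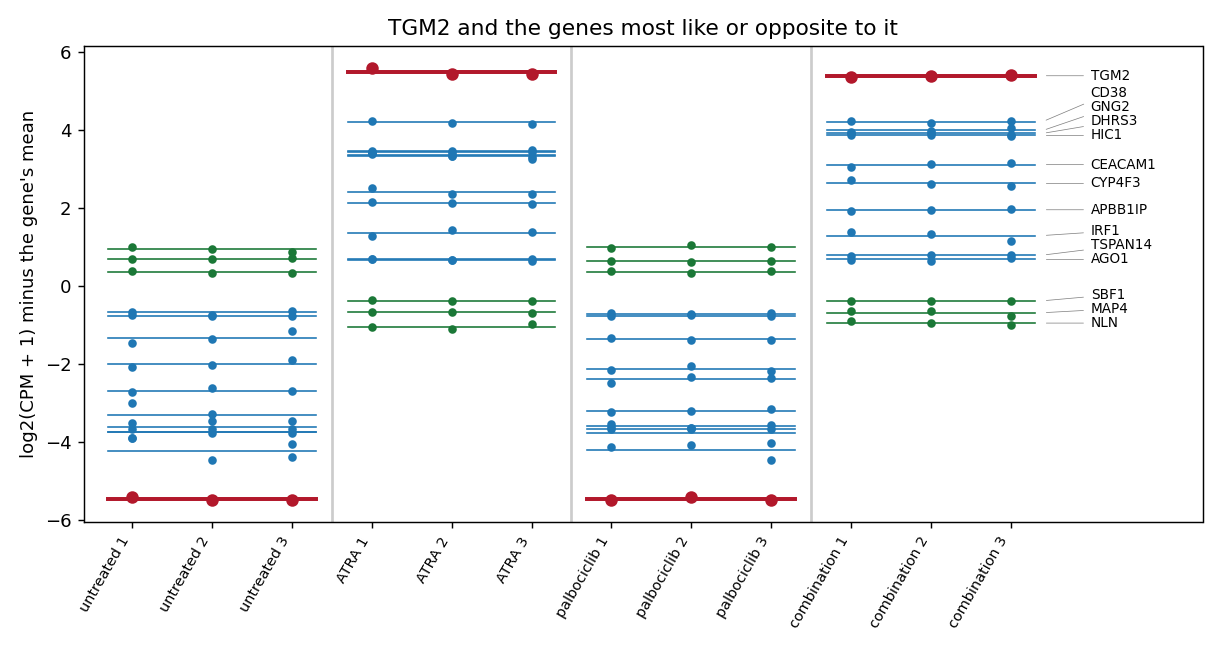
log2(CPM + 1) minus each gene's mean over the 12 libraries for TGM2 (red), the 10 genes most like it (blue) and the 3 most opposite to it (green), with points for libraries and lines for group means. All blue genes step up with TGM2 in the ATRA and combination libraries, but by less, and the green genes step down.

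No other member of the transglutaminase family had a change of this size. Of the 8 other members, TGM3 and TGM5 passed the filter on low counts. TGM5 was at 25.2, 24.5 and 25.4 CPM in untreated cells, 47.6, 45.5 and 47.3 with ATRA, 46.5, 47.7 and 52.8 with palbociclib and 46.8, 41.0 and 42.8 with the combination. It was higher under each drug alone than in untreated cells, with a log2 change of 0.90 (SE 0.065) for ATRA and 0.97 for palbociclib against untreated cells, and slightly lower for combination against palbociclib (-0.17, SE 0.063). edgeR's adjusted p was 2.08e-17 for the first of these and 0.0127 for the last, and the combination and palbociclib libraries overlapped. TGM3 was near the floor, with 37, 23, 107 and 7 summed counts in untreated, ATRA, palbociclib and combination cells, and was called higher with palbociclib against untreated cells (28.3% of all tested genes were called higher and 27.9% lower there) and lower with the combination against palbociclib (39.1% higher and 39.5% lower). TGM1 had 12 to 20 summed counts per group and TGM4 3 to 6, and both are also listed on alternate contigs. F13A1, the A subunit of coagulation factor XIII and a myeloid transglutaminase, had 37, 1, 11 and 0. EPB42 had at most 2, and TGM6 and TGM7 were listed at 0.

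Of the 15 genes listed within 250 kb of TGM2, 5 were tested, and with ATRA against untreated cells 2 were called higher and 1 lower, where 32.1% of all tested genes were called higher and 35.5% lower. In palbociclib against untreated cells 2 were called higher and 2 lower (28.3% and 27.9% of all genes), in combination against ATRA 0 and 3 (36.9% and 32.8%), and in combination against palbociclib 2 and 2 (39.1% and 39.5%). RPRD1B, the nearest tested gene at 35021 bases beyond the 3′ end of TGM2, was at 62.6 ± 2.15 and 63.3 ± 4.05 CPM in untreated and ATRA cells (SD, n = 3), with a log2 difference of 0.018 (SE 0.054). KIAA1755, 42028 bases beyond the 5′ end, went from 0.888 ± 0.158 to 3.63 ± 0.995 CPM (SD, n = 3; adjusted p = 7.26e-09, edgeR). BPI, an antibacterial granule protein gene 135681 bases away, went from 46.9 ± 5.21 to 264 ± 9.87 CPM with ATRA (SD, n = 3), and to 149 ± 3.20 with palbociclib and 247 ± 11.8 with the combination. TTI1, a cofactor of large kinases, fell with ATRA by 0.47 on the log2 scale (SE 0.058). LOC124904901, at 6 to 33 summed counts per group, was called lower with the combination against palbociclib. The other 10, LOC124904896, VSTM2L, RN7SKP185, LOC124904898, LOC124904897, RN7SL237P, LOC124904899, LOC124904900, LOC149684 and LBP, had at most 19 summed counts in any group.

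The 7 lists of genes related to TGM2 held 59 tested genes in all, with TGM2 left out. They cover its family, surface and matrix partners, genes for the clearance of apoptotic cells, partners that set its activity, its intracellular substrates, factors that act on its transcription and retinoid-responsive genes. In ATRA against untreated cells 39 of the 59 were called higher and 10 lower, where 32.1% and 35.5% of all tested genes were called. In combination against palbociclib 43 were called higher and 12 lower, against 39.1% and 39.5% of all genes. In palbociclib against untreated cells 22 were called higher and 11 lower, against 28.3% and 27.9% of all genes. In combination against ATRA 39 were called higher and 8 lower, against 36.9% and 32.8%. ATRA against untreated cells and combination against palbociclib share no library, and their values stand side by side below. List genes that passed the filter on low counts only through libraries with ATRA could only be called higher in either contrast.

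**Figure D5:**
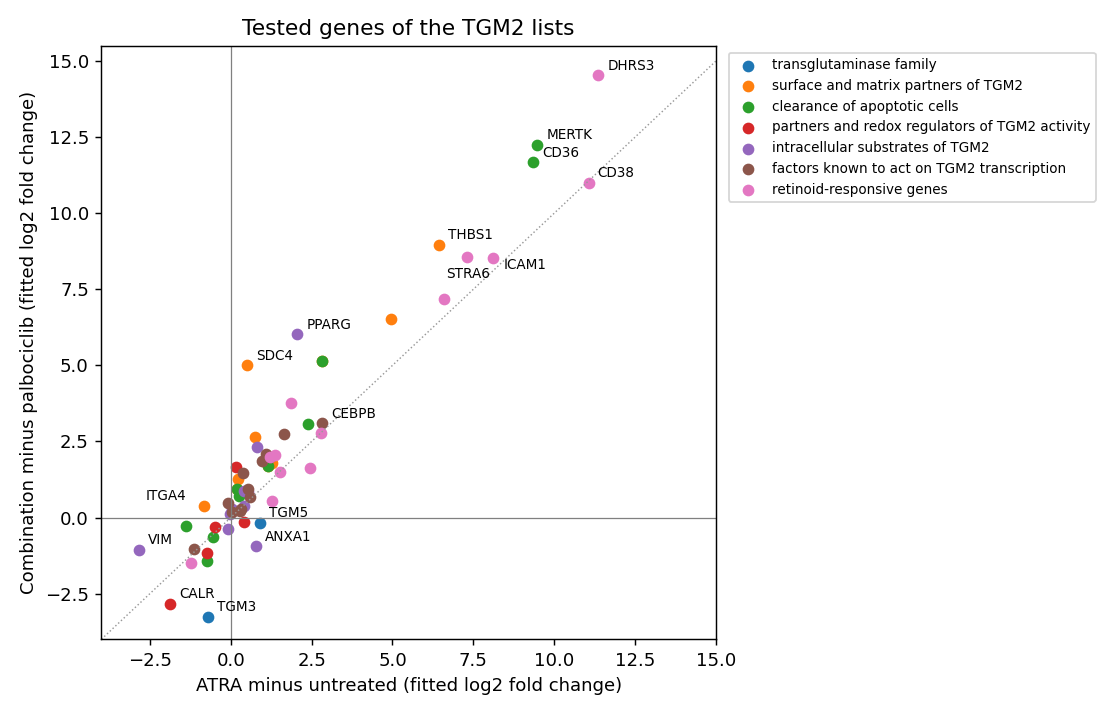
Fitted log2 fold change of each tested list gene in ATRA against untreated cells (x axis) and in combination against palbociclib (y axis), coloured by list, with the dotted line marking equal changes. Fitted values of genes with hardly any count without ATRA, such as CD36, MERTK and DHRS3, depend on the prior count. ITGA4, TGM5 and ANXA1 lie on opposite sides of zero in these comparisons.

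Most tested surface and matrix partners of TGM2 were higher with ATRA. THBS1, ADGRG1 and LRP1 passed the filter on low counts only through libraries with ATRA, so they could only be called higher. With ATRA against untreated cells 7 of 10 tested genes were called higher and 1 lower, against 32.1% and 35.5% of all genes (median log2 0.95, against -0.028 over all genes). With the combination against palbociclib 9 were called higher and 0 lower, against 39.1% and 39.5% (median log2 2.22, against 0.00143). THBS1, a matrix protein that activates latent TGF-beta, was at 0.320 ± 0.0829 CPM in untreated and 28.1 ± 2.41 in ATRA cells, and at 0.428 ± 0.133 with palbociclib and 223 ± 11.8 with the combination (SD, n = 3). TGFB1, whose latent form TGM2 can anchor to the matrix, went from 137 to 328 CPM and from 217 to 748 CPM in the same comparisons. ADGRG1, an adhesion receptor that binds TGM2, had 5 and 170 summed counts without and with ATRA, and 2 and 144 with palbociclib and the combination. LRP1, which clears TGM2 from the surface, rose from 3 to 24 counts and from 6 to 146. The syndecan SDC4 had 51, 74, 10 and 218 summed counts in untreated, ATRA, palbociclib and combination cells. Its rise was called with the combination against palbociclib, while the log2 difference of 0.51 for ATRA against untreated cells was not called (adjusted p = 0.186, edgeR).

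The integrin subunit ITGA4 moved in opposite directions. It was at 385 ± 8.53 CPM in untreated and 215 ± 8.35 in ATRA cells (log2 -0.84, SE 0.038), but at 371 ± 3.20 with palbociclib and 487 ± 12.2 with the combination (log2 0.39, SE 0.037; SD, n = 3). FN1, the fibronectin that TGM2 binds, was not tested, with 12 to 17 summed counts per group, and ITGB3 had 0, 8, 1 and 14.

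Of 10 tested genes for the clearance of apoptotic cells, 6 were called higher and 3 lower with ATRA, where 32.1% and 35.5% of all genes were called. With the combination against palbociclib 6 were called higher and 2 lower (39.1% and 39.5% of all genes). MERTK, CD36 and LRP1 passed the filter on low counts only through libraries with ATRA, so they could only be called higher. LRP1, ITGAV and MFGE8 count both in this list and among the surface and matrix partners. MERTK, a receptor for phosphatidylserine bridges, had 2, 1744, 1 and 4519 summed counts in untreated, ATRA, palbociclib and combination cells, which gave ratios of 853 (exact 95% counting interval 236 to 7047) and 6962 (1249 to 275056). CD36, a scavenger receptor, was at 0 in all 6 libraries without ATRA and had 266 counts with ATRA and 895 with the combination, at least 86.7-fold and 459.6-fold higher. PROS1, a ligand of MERTK, rose from 0.498 to 2.65 CPM and from 0.655 to 5.44 CPM. GAS6, the other ligand, fell from 6.68 to 3.97 CPM with ATRA and from 14.6 to 5.40 CPM with the combination against palbociclib. TYRO3, a receptor related to MERTK, fell with ATRA from 4.13 to 1.58 CPM, and the phagocytosis adaptor ELMO1 from 125 to 86.0 CPM.

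Of 5 tested partners that set the activity of TGM2, 1 was called higher and 3 lower in ATRA against untreated cells, where 32.1% and 35.5% of all genes were called, and likewise in combination against palbociclib (39.1% and 39.5%). CALR, a calcium-binding chaperone that also binds TGM2, fell from 2727 ± 62.6 to 746 ± 23.2 CPM with ATRA and from 3504 ± 36.2 to 492 ± 12.4 CPM with the combination against palbociclib (SD, n = 3). PDIA3, which oxidizes extracellular TGM2 to an inactive form, fell from 638 to 379.6 CPM and from 729 to 327 CPM. TXN, thioredoxin, which reduces it back to the active form, fell from 277 to 198 CPM and from 294 to 234 CPM. TXNRD1, the reductase that recharges thioredoxin, rose by 0.18 on the log2 scale (SE 0.042) with ATRA and by 1.65 (SE 0.042) with the combination against palbociclib.

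Intracellular substrates were called higher in 6 and lower in 1 of 10 tested genes with ATRA (32.1% and 35.5% of all genes), and higher in 7 and lower in 3 with the combination against palbociclib (39.1% and 39.5% of all genes). By library size alone, 2 of these 7 were no longer higher, RHOA (log2 0.11, then -0.17) and BECN1 (0.27, then -0.0045). NFKBIA, the NF-kappaB inhibitor that TGM2 can crosslink, went from 21.3 to 37.3 CPM and from 24.9 to 125 CPM. RB1, the retinoblastoma protein, went from 183 to 265 CPM and from 141 to 253 CPM. PPARG, a nuclear receptor, had 6, 27, 4 and 186 summed counts in untreated, ATRA, palbociclib and combination cells, and ACTB rose by 0.41 and 0.89 on the log2 scale. PPARG passed the filter on low counts only through libraries with ATRA. VIM, vimentin, fell from 6.01 to 0.851 CPM and from 12.1 to 5.80 CPM, and GSTP1 fell by 0.37 on the log2 scale with the combination against palbociclib. ANXA1 was at 102 ± 3.26 and 176 ± 3.86 CPM in untreated and ATRA cells, but at 212 ± 3.63 and 111 ± 3.31 CPM with palbociclib and the combination (SD, n = 3).

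Of 13 tested factors known to act on TGM2 transcription, 9 were called higher and 1 lower with ATRA (32.1% and 35.5% of all genes). With the combination against palbociclib 11 were called higher and 1 lower (39.1% and 39.5% of all genes), and 1 of the 11, SMAD4, was at -0.10 by library size alone. CEBPB, a myeloid C/EBP factor, went from 37.2 to 264 CPM (log2 2.82, SE 0.048) and from 38.5 to 329 CPM (log2 3.10, SE 0.048). SMAD3, the TGF-beta effector, went from 39.2 to 123 CPM and from 40.9 to 276 CPM. RARA, the receptor for ATRA, went from 44.3 to 103 CPM and from 46.6 to 184 CPM, and HIF1A from 28.7 to 60.9 CPM and from 24.0 to 101 CPM. RXRA, the partner of RARA, fell from 168 to 76.1 CPM and from 196 to 96.3 CPM. RXRG was listed at 0, and RXRB, which is also listed on alternate contigs, had group means of 0.591 to 1.23 CPM.

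Among 24 retinoid-responsive genes, 13 were tested, of which 12 were called higher and 1 lower both with ATRA (32.1% and 35.5% of all genes) and with the combination against palbociclib (39.1% and 39.5%). Of these, DHRS3, STRA6, PLAAT4 and CD38 passed the filter on low counts only through libraries with ATRA, so they could only be called higher. DHRS3, CD38 and RARA are described above, and RARA counts among the transcription factors too. ICAM1, an adhesion molecule, was at 0.576 ± 0.0215 and 159.7 ± 11.5 CPM in untreated and ATRA cells and at 2.86 ± 0.319 and 1062 ± 25.4 CPM with palbociclib and the combination (SD, n = 3). STRA6, a retinol carrier that is also listed on alternate contigs, had 0 and 65 summed counts and then 1 and 351. TNFSF10, which encodes the death ligand TRAIL, fell from 16.3 to 6.95 CPM and from 24.6 to 8.69 CPM. CYP26A1, the retinoic acid hydroxylase that is the usual early target, had 0, 1, 0 and 3 summed counts in untreated, ATRA, palbociclib and combination cells, too few to test.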

How the data were processed

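RNA-Seq of 12 HL-60 libraries was used, with groups taken from the column labels. The authors trimmed the reads with Trimmomatic 0.33, aligned them to hg38 with STAR 2.7.11a, assembled transcripts with NCBI RefSeq as the reference annotation, and deposited raw counts per gene as whole numbers with no normalization. The paper names RSEM as the counter, while the columns of gene position and length follow another layout. The paper also names a directional library kit, but the strand setting of the counting is not given in the sources used here.

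TGM2, its gene lists and the tests were chosen with earlier results of these data known. Genes were filtered with filterByExpr (13318 kept of 59251), TMM-normalized and fitted over all 12 libraries in edgeR 4.0.16 (R 4.3.3), with a quasi-likelihood F test, 8 residual degrees of freedom and Benjamini-Hochberg adjustment over all tested genes at 0.05. No contrast of TGM2 carries a test, since its counts in all 4 groups were in view when it was chosen, and the planned test of combination against palbociclib is not reported for that reason. Against a group with 1 to 3 counts, the ratio of summed counts is given with an exact Clopper-Pearson 95% interval, and against 0 counts a bound on a floor of 3 counts over the group (0.0594 to 0.0755 CPM by library size). Both cover counting error only.

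Named genes were TGM2, its family, its neighbours within 250 kb, the 10 most like and 3 most opposite profiles, its neighbours in rank and, in each other list, the called members with the 4 largest rises and falls in ATRA against untreated cells or combination against palbociclib. Other genes named were chosen after their values were seen. Lists were written from general knowledge. Libraries of a group differed by more than sampling noise (chi-square per degree of freedom 1.83 to 6.49). The test was run on simulated counts before use. Alternatives covered scaling by library size alone or by DESeq2's size factors, other filters (none, or a minimum of 10 counts per library), DESeq2 1.42.0 as the test, a block on replicate number, fits of the compared groups by themselves and fits without each library. Figures were drawn with matplotlib 3.10.9.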

Additional observations from a re-analysis of the deposited data

Results flagged for a closer look

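For 3 genes of the TGM2 lists, ATRA had effects of opposite sign in cells without and with palbociclib, each called. Of all tested genes, 32.1% were called higher and 35.5% lower in ATRA against untreated cells. In combination against palbociclib these shares were 39.1% and 39.5%. The share of all genes with opposite calls was not counted, so whether 3 is many cannot be told. They were picked for these opposite signs, so the difference between the effects, fitted as an interaction in edgeR, is given as a description. For ANXA1 the interaction was -1.72 on the log2 scale, with 0.79 for ATRA against untreated cells and -0.94 for combination against palbociclib. For ITGA4 it was 1.23, with -0.84 and 0.39. For TGM5 it was -1.07, with 0.90 and -0.17. Palbociclib against untreated cells already raised ANXA1 (log2 1.05) and TGM5 (0.97), while ITGA4 was at -0.053 and not called. ANXA1 and ITGA4 had library values that did not overlap in either comparison, whereas those of TGM5 overlapped between combination and palbociclib. By library size alone the signs were the same, with 0.12 for ITGA4 and -0.45 for TGM5 in combination against palbociclib. No explanation was tested.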

How the results depend on the processing

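The fitted log2 change of TGM2 in combination against palbociclib, which depends on the prior count, ranged from 15.60 to 17.84 when single libraries were left out. A minimum of 10 counts per library removed TGM2 and gave no value for it. The log2 difference of combination against ATRA was -0.10, -0.41 by library size alone and -0.20 without a filter on low counts. The cause of the second was not tested. Leaving out single libraries gave -0.14 to -0.055. The ranks of 31 (ATRA) and 75 (combination) became 146 and 186 per kb, where length enters by construction, and 30 to 34 and 73 to 77 without single libraries. TGM2 ranked 1st by ATRA fold under each of the alternatives run. Without single libraries, the ratios against untreated cells ranged from 65711 to 103532 (ATRA) and from 61051 to 95709 (combination) where a count was left. Under the other alternatives they reached up to 105244 (ATRA, fit of the compared groups by themselves) and 96095 (combination, DESeq2's size factors).

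Of the 10 genes most like TGM2, 6 remained with log2(CPM + 0.1), 5 by library size alone, 1 with Spearman's rho, which ranks only the order of libraries, and 8 to 10 without single libraries. Called neighbours were 4 of 5 tested for palbociclib against untreated cells, and 7 without a filter, which tests more genes. They ranged from 1 to 3 of 5 for combination against ATRA, with 1 without combination replicate 1. Calls over the 7 lists stayed within 1.5 times of 49, 33, 47 and 55 in the 4 contrasts under each alternative, while lower calls in combination against ATRA went from 8 to 16 by library size alone and to 13 without a filter.

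The values showed no pairing by replicate number. Same-numbered libraries had correlations of their deviations of -0.11 to 0.070, and 0 of 18 pairs were over 0.1. Whether same-numbered libraries were cultured or processed together cannot be told from these correlations. With the replicate number as a block, TGM2 had a log2 difference of -0.10 for combination against ATRA and of 16.10 for combination against palbociclib. Total counts limit what can be said of TGM2 without ATRA, where 0 and 1 counts cannot be told apart.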
